A study of Schizosaccharomyces pombe with 3 samples.

Results

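The catalytic cores of RNA polymerase I (Pol I) and RNA polymerase III (Pol III) were followed at the mRNA level in fission yeast, Schizosaccharomyces pombe, carrying a slowly elongating RNA polymerase II (Pol II). The 5 genes were taken by identifier from a table of 7049 annotated genes: nuc1 (SPBC4C3.05c), rpa2 (SPBP23A10.07) and rpa12 (SPCC1259.03) for Pol I, and rpc1 (SPBC651.08c) and rpc2 (SPAC4G9.08c) for Pol III. The rule uses the identifiers alone and no threshold on a measured value. The slow strains carried rpb1 (N494D), in which aspartate replaces an asparagine of Rpb1, the largest Pol II subunit. The wild type (WT) was the parental strain, which by its label differs only in rpb1. The labels list for slow and WT strains alike the mating type h-, deletions of fex1 and fex2 (fex1_delta, fex2_delta), and the marker alleles his3-D1 and ura4-D18 as well as leu1-32 and ade6-M216. Slow#1 and slow#2 were independent clones of the mutant with 1 library each, and WT had 1 library. All were grown to mid-log phase in minimal medium (EMM) to which uracil, leucine, histidine and adenine were added. Total RNA was depleted of ribosomal RNA and sequenced as stranded read pairs.

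In eukaryotes, Pol I transcribes the large ribosomal RNA precursor in the nucleolus, whereas Pol III makes 5S ribosomal RNA, transfer RNAs and other short noncoding RNAs. Each enzyme is built around a largest and a second-largest subunit that together form the catalytic cleft and are paralogs of Rpb1 and Rpb2 of Pol II. The mRNAs for all of these subunits are made by Pol II. Nuc1 is the largest and Rpa2 the second-largest subunit of Pol I, and Rpc1 and Rpc2 hold the same places in Pol III. Rpa12 is a small zinc-ribbon subunit of Pol I, related to Rpb9 of Pol II, that serves transcript cleavage in budding yeast.

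The residue changed in the slow strains lies in a stretch of the active site that the Pol I and Pol III enzymes share. In global alignments of the RefSeq proteins, the residue mutated in Rpb1 matched residue 650 of Nuc1 and residue 500 of Rpc1, and asparagine stood there in all 3. Over the 15 residues centred on it, 13 in Nuc1 and 13 in Rpc1 were the same as in Rpb1. The coding sequence of this window is shown because it holds the altered position of Rpb1 and its unaltered counterparts in the 2 genes measured here. It was read from the RefSeq assembly ASM294v3, 5′ to 3′ on the coding strand, and capitals mark the asparagine codon of the reference.
rpb1, chrII:1592910-1592954, plus strand: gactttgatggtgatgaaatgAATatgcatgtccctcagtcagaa
nuc1, chrII:3129825-3129869, plus strand: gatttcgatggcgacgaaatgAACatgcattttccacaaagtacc
rpc1, chrII:1252780-1252824, minus strand: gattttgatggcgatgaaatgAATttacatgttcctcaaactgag
The codon was AAC in nuc1, against AAT in rpb1 and in rpc1. The whole proteins were less alike than this window: 34.7% of aligned positions were identical between Nuc1 and Rpb1, 39.4% between Rpc1 and Rpb1, and 30.9% between Nuc1 and Rpc1. Rpa2 and Rpc2 shared 33.2% of aligned positions with each other, and 32.5% and 41.9% with Rpb2. Rpa12, of 119 residues, shared 26.3% with Rpb9. Gene counts do not show the mutation itself.

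The libraries held 40746838 counted read pairs in slow#1, 30674459 in slow#2 and 31803128 in WT. The 5 genes took 0.120%, 0.119% and 0.164% of these counts in slow#1, slow#2 and WT. Levels are given as CPM (counts scaled to a fixed library size) after TMM scaling. The slow group was compared with WT by the quasi-likelihood test of edgeR over 6418 genes that passed a filter on low counts, and all 5 genes passed it. A gene was called at a false discovery rate (FDR) under 0.01 together with a change above 1.5-fold. Since WT had 1 library, every p-value rests on the spread between the 2 clones and on the trend over genes, with WT assumed to vary in the same way. Counts for ura4 were 0 in all 3 libraries, whereas his3 had 511 to 590, fex1 244 to 549 and fex2 566 to 714, although the labels list his3-D1 and deletions of both fex genes.

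All 5 core subunit mRNAs were lower in both slow clones than in WT, with fitted means at 0.672 to 0.822 of WT, and none of the 5 was called. The count of 0 stands beside 0.390% of all tested genes that were called lower (25 genes) and 0.312% that were called higher (20 genes). The 2 large Pol I subunits were the lowest relative to WT, then rpc2 and rpc1 of Pol III, then rpa12. At an unadjusted p under 0.05 in edgeR, 4 of the 5 were lower, against 17.9% of all genes tested. DESeq2 also called 0 of 5, where 3.56% of genes were called lower, and gave 3 of 5 at an unadjusted p under 0.05, against 13.2% of all genes. At an FDR under 0.05 with the same fold limit, edgeR still called 0 of 5, while 5.59% of genes were called lower. CPM are relative to the counted RNA of a library, so an absolute level per cell was not measured. In bulk RNA, a lower relative level across all cells and fewer expressing cells cannot be told apart.

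rpa2 encodes the second-largest Pol I subunit and is a single exon of 3837 bases at chrII:2008119-2011955 on the plus strand (ASM294v2, the build of the count table). It had 12649 and 9222 counts in slow#1 and slow#2, against 14588 in WT. After scaling these were 306 and 307 CPM in the slow clones, against 456 CPM in WT, so the clones sat almost together at 67.0% and 67.4% of the WT value. The slow mean was 306 ± 1.30 CPM (SD, n = 2). The log2 fold change in edgeR was -0.57 ± 0.13 (SE; 95% interval -0.88 to -0.26), with an FDR of 0.0344. This was a fold of 0.672, just short of the 1.5-fold limit, and DESeq2 gave an adjusted p of 0.0121. rpa2 was the gene of the 5 nearest to being called.

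nuc1 encodes the largest Pol I subunit, in a single exon of 5424 bases at chrII:3127776-3133199 on the plus strand. Its counts were 18955 and 14751 in slow#1 and slow#2, against 20998 in WT, the highest counts of the 5 genes. They came to 458 and 492 CPM in the slow clones, against 656 CPM in WT. Both clones were lower than WT, slow#1 at 69.8% and slow#2 at 74.9% of it, with a slow mean of 475 ± 23.9 CPM (SD, n = 2). The edgeR log2 fold change was -0.47 ± 0.14 (SE; 95% interval -0.81 to -0.13), with an FDR of 0.0697 and a DESeq2 adjusted p of 0.0521.

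rpc2, the second-largest subunit of Pol III, is a single exon of 3620 bases at chrI:2265987-2269606 on the minus strand. It had 7075 and 5146 counts in slow#1 and slow#2, and 7046 in WT. The levels were 171 and 172 CPM in the slow clones, against 220 CPM in WT, and the slow mean was 171 ± 0.439 CPM (SD, n = 2). The clones stood together below WT, at 77.6% and 77.9% of it. The edgeR log2 fold change was -0.36 ± 0.12 (SE), with an FDR of 0.0812, and DESeq2 gave an adjusted p of 0.168.

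rpc1, the largest subunit of Pol III, has 2 exons with 4616 bases in all at chrII:1249831-1254496 on the minus strand. Counts were 9187 and 6649 in slow#1 and slow#2, against 8763 in WT. Both slow clones stood at 222 CPM, against 274 CPM in WT, which is 81.0% and 80.9% of the WT value. The edgeR log2 fold change was -0.30 ± 0.12 (SE), with an FDR of 0.132 and a DESeq2 adjusted p of 0.261. The exons of rpc1 overlap those of SPBC651.07 on the opposite strand over 166 bases, 3.6% of the length of rpc1. The authors counted read pairs by strand, and SPBC651.07 had a log2 fold change of -0.012.

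rpa12, the small Pol I subunit, has 2 exons with 969 bases in all at chrIII:1039803-1041016 on the plus strand, and it was the gene with the fewest counts. It had 820 and 674 counts in slow#1 and slow#2, and 822 in WT. These were 19.8 and 22.5 CPM in the slow clones, against 25.7 CPM in WT. The slow mean was 21.1 ± 1.88 CPM (SD, n = 2), and the clones were at 77.1% and 87.4% of WT. The edgeR log2 fold change was -0.28 ± 0.17 (SE), its 95% interval of -0.69 to 0.12 included 0, and the FDR was 0.271. DESeq2 gave an adjusted p of 0.512.

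**Figure D1:**
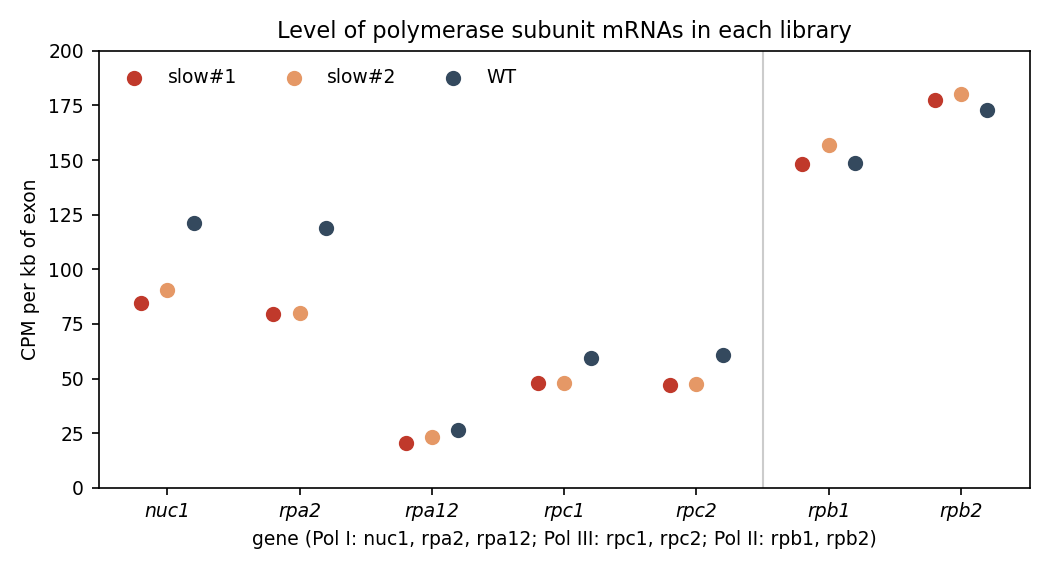
CPM per kb of exon (vertical axis, linear) of the 5 Pol I and Pol III genes and of rpb1 and rpb2, with 1 point for each library of slow#1, slow#2 and WT. For each of the 5 genes both slow points lie below the WT point (nuc1 at 84.4 and 90.6, against 121 in WT), whereas for rpb1 and rpb2 the 3 points lie close together.

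Taken clone by clone, each slow library was set against the same WT library, so the 2 comparisons are not independent, and with 1 library on each side neither has a test. The log2 differences from WT in slow#1 and slow#2 were -0.58 and -0.57 for rpa2, and -0.52 and -0.42 for nuc1. They were -0.37 and -0.36 for rpc2, -0.30 and -0.31 for rpc1, and -0.37 and -0.19 for rpa12. For each gene the 95% interval that counting error alone allows (exact conditional binomial) stayed below 0 in both clones. The one closest to 0 was that of rpa12 in slow#2, -0.34 to -0.045. The share of all genes with such intervals was not computed. Being lower in both clones was common, however, since 42.6% of all genes tested were. None of the 5 was past 1.5-fold lower in slow#1 or in slow#2, where 7.82% and 9.55% of all genes tested were.

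The clones agreed closely on rpc1, rpc2 and rpa2, whose log2 levels in slow#1 and slow#2 were 0.0019, 0.0052 and 0.0086 apart. nuc1 differed by 0.10 between the clones and rpa12 by 0.18. Over 4645 nuclear protein-coding genes with a mean count of 500 or more, the median difference between the clones was 0.11, so 4 of the 5 genes differed less between clones than the median gene and rpa12 differed more.

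**Figure D2:**
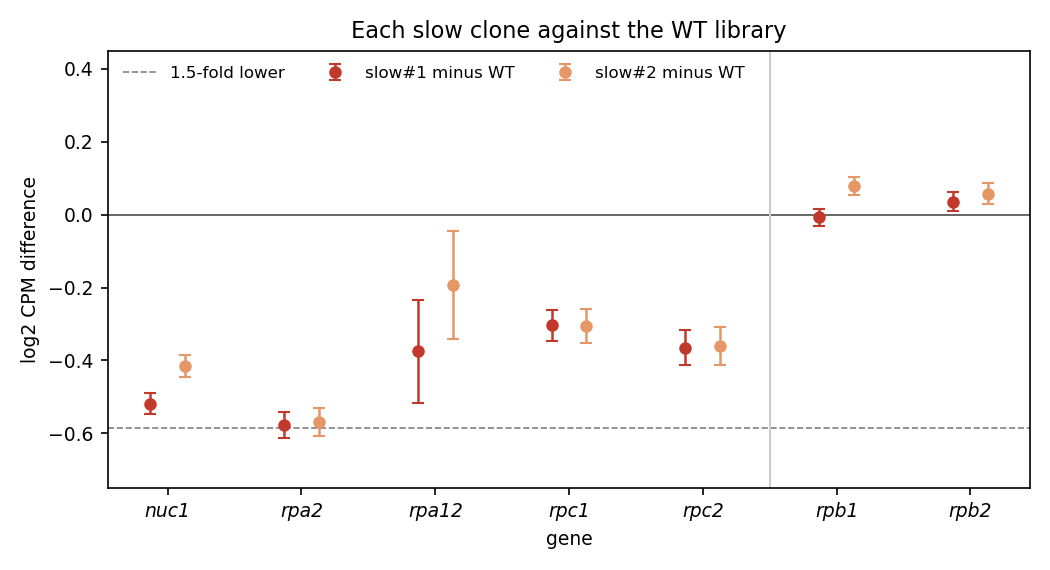
Log2 CPM of each slow clone minus log2 CPM of WT for the 5 genes and for rpb1 and rpb2, with bars for the 95% interval from counting error and a dashed line at 1.5-fold lower. All 10 points of the 5 genes lie between 0 and the dashed line, with rpa2 closest to the line, and the points of rpb1 and rpb2 lie within 0.1 of 0.

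The core subunits were in the lower part of the range of all genes, though not at its end. Among 5013 nuclear protein-coding genes tested, the log2 fold change of rpa2 was at the 7.60th percentile and that of nuc1 at the 12.6th. rpc2 was at the 18.9th, rpc1 at the 22.8th and rpa12 at the 24.9th. The median log2 fold change of the 5 genes was -0.36, beside 0.010 over all genes tested and -0.033 over the protein-coding genes, whose interquartile range ran from -0.28 to 0.24. Each of the 5 was below the lower edge of that range, rpa12 only just.

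Per kb of exon, the large subunits of 1 enzyme had similar levels, and in each library those of Pol III were below those of Pol I. In CPM per kb, nuc1 had 84.4 and 90.6 in slow#1 and slow#2, against 121 in WT. rpa2 had 79.6 and 80.1 in the slow clones, against 119 in WT. For Pol III, rpc1 had 48.1 and 48.0 CPM per kb in the slow clones, against 59.3 in WT, and rpc2 had 47.2 and 47.4, against 60.8 in WT. rpa12 was far below its partners, at 20.4 and 23.2 CPM per kb in the slow clones, against 26.5 in WT. Its gene start is at 1039803 in the build of the count table and at 1040100 in ASM294v3. The annotated starts of nuc1, rpa2, rpc1, rpc2, rpb1 and rpb2 also differ between the builds, by fewer bases. Exon lengths, and so per-kb levels and ratios of genes within a library, depend on the annotation used, most of all for rpa12.

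The order of levels was nuc1, rpa2, rpc1, rpc2 and rpa12 in both slow clones, and in WT rpc2 stood above rpc1. The ratio of rpc1 to rpc2 was 1.02 and 1.01 in slow#1 and slow#2, against 0.975 in WT, and the counting interval included 1 in each of the 3 libraries, so these neighbours did not differ beyond counting error. nuc1 over rpa2 was 1.06 and 1.13 in slow#1 and slow#2, against 1.02 in WT. The counting intervals were 1.036 to 1.084 in slow#1, 1.102 to 1.161 in slow#2 and 0.997 to 1.040 in WT. That of slow#1 overlapped that of WT, and that of slow#2 did not. Because exon length enters a per-kb ratio, whether an interval included 1 depends on the annotation used. Between the enzymes, nuc1 over rpc1 was 1.76 and 1.89 in the slow clones, against 2.04 in WT, and rpa2 over rpc2 was 1.69 in both clones, against 1.95 in WT. Counting intervals of both ratios did not overlap between either slow clone and WT. How often this holds for other pairs of genes was not computed. With 2 libraries against 1, an exact permutation test of such a ratio cannot go below 0.333 (one-sided), so no test was made.

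The Pol II paralogs rpb1 and rpb2 had levels near WT in both clones. rpb1, the mutated gene, had 788 and 837 CPM in slow#1 and slow#2, against 792 CPM in WT, and rpb2 had 666 and 676 CPM in the slow clones, against 650 CPM in WT. Their edgeR log2 fold changes were 0.036 ± 0.16 (SE, FDR 0.887) and 0.047 ± 0.15 (SE, FDR 0.843), and under scaling to nda2, act1 and fba1 they were -0.15 and -0.14. Within a library the ratio of a core subunit to its Pol II paralog needs no scaling factor. nuc1 over rpb1, per kb, was 0.570 and 0.577 in the slow clones, against 0.813 in WT. rpa2 over rpb2 was 0.449 and 0.445 in the slow clones, against 0.687 in WT. For Pol III, rpc1 over rpb1 was 0.325 and 0.306 in the slow clones, against 0.399 in WT, and rpc2 over rpb2 was 0.266 and 0.263, against 0.352 in WT. rpa12 over rpb9 was 0.567 and 0.551 in the slow clones, against 0.894 in WT, a ratio in which rpb9 was itself higher in both clones (log2 fold change 0.40, FDR 0.146 in edgeR). For all 5 ratios the counting intervals of the slow clones lay below that of WT. How many other genes would separate in this way from rpb1, rpb2 or rpb9 was not computed. Of all genes tested, 42.6% were lower in both clones, and counting intervals are narrow at high counts. These differences have no replicate check on the WT side.

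**Figure D3:**
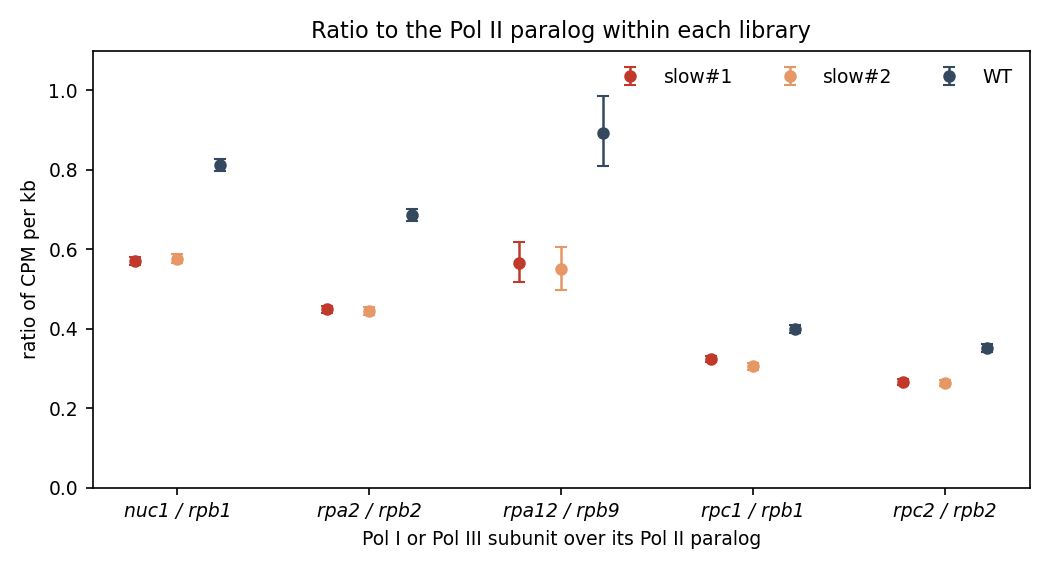
Ratio of CPM per kb of each Pol I or Pol III subunit to its Pol II paralog in slow#1, slow#2 and WT, with bars for the 95% interval from counting error. In each of the 5 ratios both slow points lie below the WT point, and the slow clones lie closer to each other than to WT.

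The remaining Pol I-specific subunits were lower or near WT, and edgeR called 0 of 4. At an unadjusted p under 0.05 in edgeR, 2 of 4 were lower, against 17.9% of all genes tested. DESeq2, which called 3.56% of all genes lower, called 0 of these 4 subunits. Their median log2 fold change was -0.26, beside 0.010 over all genes, with clone medians of -0.43 in slow#1 and -0.20 in slow#2. Under scaling to nda2, act1 and fba1 the median was -0.46 and edgeR called 1 of the 4, rpa49. Over the whole table that setting called 611 of 6418 tested genes lower and 187 higher. rpa49 and rpa34, whose products form a heterodimer on the enzyme in budding yeast, had log2 fold changes of -0.45 (FDR 0.0531) and -0.41 (FDR 0.0746) in edgeR. rpa43, in the stalk of the enzyme, had -0.085 and ker1 -0.11, and for ker1 the clones lay on either side of WT (-0.40 in slow#1 and 0.13 in slow#2).

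Among 8 further Pol III-specific subunits edgeR called 0, with unadjusted p under 0.05 for 2 lower genes and 1 higher gene, while DESeq2 called 1, rpc34. Over all genes, DESeq2 called 3.56% lower and 4.84% higher. Over all genes tested in edgeR, 17.9% were lower and 17.5% higher at that unadjusted p, and this list was near those shares. The median log2 fold change was 0.023, which became -0.17 under scaling to nda2, act1 and fba1, and the clones differed in sign, with medians of -0.11 in slow#1 and 0.085 in slow#2. That scaling also brought the edgeR calls to 1 of 8, rpc34, while 611 of 6418 tested genes were called lower and 187 higher under it. rpc34, a subunit of the initiation subcomplex, had 37.6 and 38.0 CPM in slow#1 and slow#2, against 72.3 CPM in WT. Its log2 fold change was -0.94 ± 0.12 (SE), with an edgeR FDR of 0.0114 and a DESeq2 adjusted p of 0.000173. rpc82, of the same subcomplex, had -0.33 (edgeR FDR 0.0946). At the other end, rpc37, whose product acts in termination in budding yeast, had 0.46 (edgeR FDR 0.0519). rpc17, of the stalk, had 0.18 (edgeR FDR 0.347), and -0.0079 under scaling to the reference genes.

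Most of the subunits that Pol I and Pol III have in common read lower in the slow clones. Of 7 such genes, edgeR called 0, with unadjusted p under 0.05 for 4 lower genes and 1 higher gene, and DESeq2 called 2 lower and 1 higher. Over all genes, 17.9% were lower and 17.5% higher at that p, and DESeq2 called 3.56% lower and 4.84% higher. With scaling to nda2, act1 and fba1, edgeR called 6 of the 7 (rpc19, rpc40, rpb5, rpb6 and rpb8 lower and rpc10 higher), a setting under which it called 611 genes lower and 187 higher in the whole table. The median log2 fold change was -0.54, beside 0.010 over all genes. rpb6, shared by all 3 polymerases, had 62.3 and 56.6 CPM in the slow clones, against 114 CPM in WT, a log2 fold change of -0.94 with an edgeR FDR of 0.0116. rpc19, which Pol I and Pol III use in their assembly platform, had 46.1 and 49.3 CPM in the slow clones, against 78.5 CPM in WT. Its log2 fold change was -0.72, with an edgeR FDR of 0.0205 and a DESeq2 adjusted p of 0.00574. rpc40, its partner in that platform, had -0.61 (edgeR FDR 0.0257). With TMM factors rpb5, a subunit of all 3 polymerases, had -0.49 (edgeR FDR 0.272). Its clones were 0.75 apart, at -0.91 in slow#1 and -0.16 in slow#2. The main exception was rpc10, another subunit of all 3 polymerases, at 258 and 410 CPM in the slow clones, against 167 CPM in WT. Its log2 fold change was 1.00 ± 0.27 (SE, edgeR FDR 0.0574, DESeq2 adjusted p 0.00124), and the clones were 0.67 apart. rpb10, also shared by all 3 polymerases, was slightly higher in both clones, with a log2 fold change of 0.042, and -0.15 under scaling to nda2, act1 and fba1.

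The 7 Pol II-specific subunits had a median log2 fold change of 0.029, and -0.16 under scaling to the reference genes. edgeR called 0 of them, beside 0.390% called lower and 0.312% called higher over all genes. DESeq2 called 0 too, beside 3.56% called lower and 4.84% called higher. At an unadjusted p under 0.05 in edgeR, 2 were lower (17.9% over all genes). rpb11 had -0.39 (edgeR FDR 0.138) and rpb3 -0.32 (edgeR FDR 0.132). These encode the Pol II counterparts of Rpc19 and Rpc40, which had lower values still.

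Initiation and termination factors of Pol I gave a median log2 fold change of -0.15 over 7 genes, with -0.22 in slow#1 and -0.083 in slow#2. It was -0.34 under scaling to nda2, act1 and fba1 and -0.087 with upper-quartile factors. edgeR called 0, with 2 lower at an unadjusted p under 0.05 (17.9% over all genes). DESeq2 called 1, rrn3, as lower, beside 3.56% called lower over all genes. Under the reference-gene scaling edgeR called rrn3 too, a setting with 611 of 6418 tested genes called lower and 187 higher. rrn3 encodes the factor that brings Pol I to its promoter. It had 153 and 138 CPM in slow#1 and slow#2, against 289 CPM in WT, so the clones were at 53.0% and 47.7% of WT. The log2 fold change was -0.99 ± 0.13 (SE), with an edgeR FDR of 0.0114 and a DESeq2 adjusted p of 4.96e-06. rrn11, of the core promoter factor, had -0.50 (edgeR FDR 0.0944). spp27, of the upstream factor, and reb1, the terminator-binding factor, had 0.12 and 0.059, which became -0.076 and -0.13 under scaling to nda2, act1 and fba1.

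Pol III factors had a median log2 fold change of 0.11 over the 9 of 10 genes that were tested, and -0.077 under scaling to the reference genes. sfc7 had no counts in any library. edgeR called 0 of the 9, beside 0.390% called lower and 0.312% called higher over all genes. DESeq2 also called 0, beside 3.56% called lower and 4.84% called higher. At an unadjusted p under 0.05 in edgeR, 2 genes were higher and 1 was lower. These counts were close to the 17.5% higher and 17.9% lower over all genes. Among the subunits of TFIIIC, the factor that binds the internal promoters of Pol III genes, sfc4 had 0.46 (edgeR FDR 0.0895) and sfc9 -0.42 (edgeR FDR 0.0771). TFIIIC also holds sfc6, at -0.33 (edgeR FDR 0.152), and sfc2, which encodes TFIIIA, the 5S-specific factor, had 0.30 (edgeR FDR 0.138).

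Of the 2 Pol III transcripts looked at, srp7 rose. srp7, the RNA of the signal recognition particle, had 1292 and 1435 CPM in slow#1 and slow#2, against 396 CPM in WT, a log2 fold change of 1.78 ± 0.19 (SE) with an edgeR FDR of 0.00957. With RLE scaling edgeR called 0 genes in the whole table, srp7 included, and DESeq2 gave srp7 an adjusted p of 1.16e-20. snu6, the U6 spliceosomal RNA, had 47.6 and 105 CPM in the slow clones, against 61.3 CPM in WT, with the clones on either side of WT. Transfer RNA and 5S RNA were not analysed here.

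**Figure D4:**
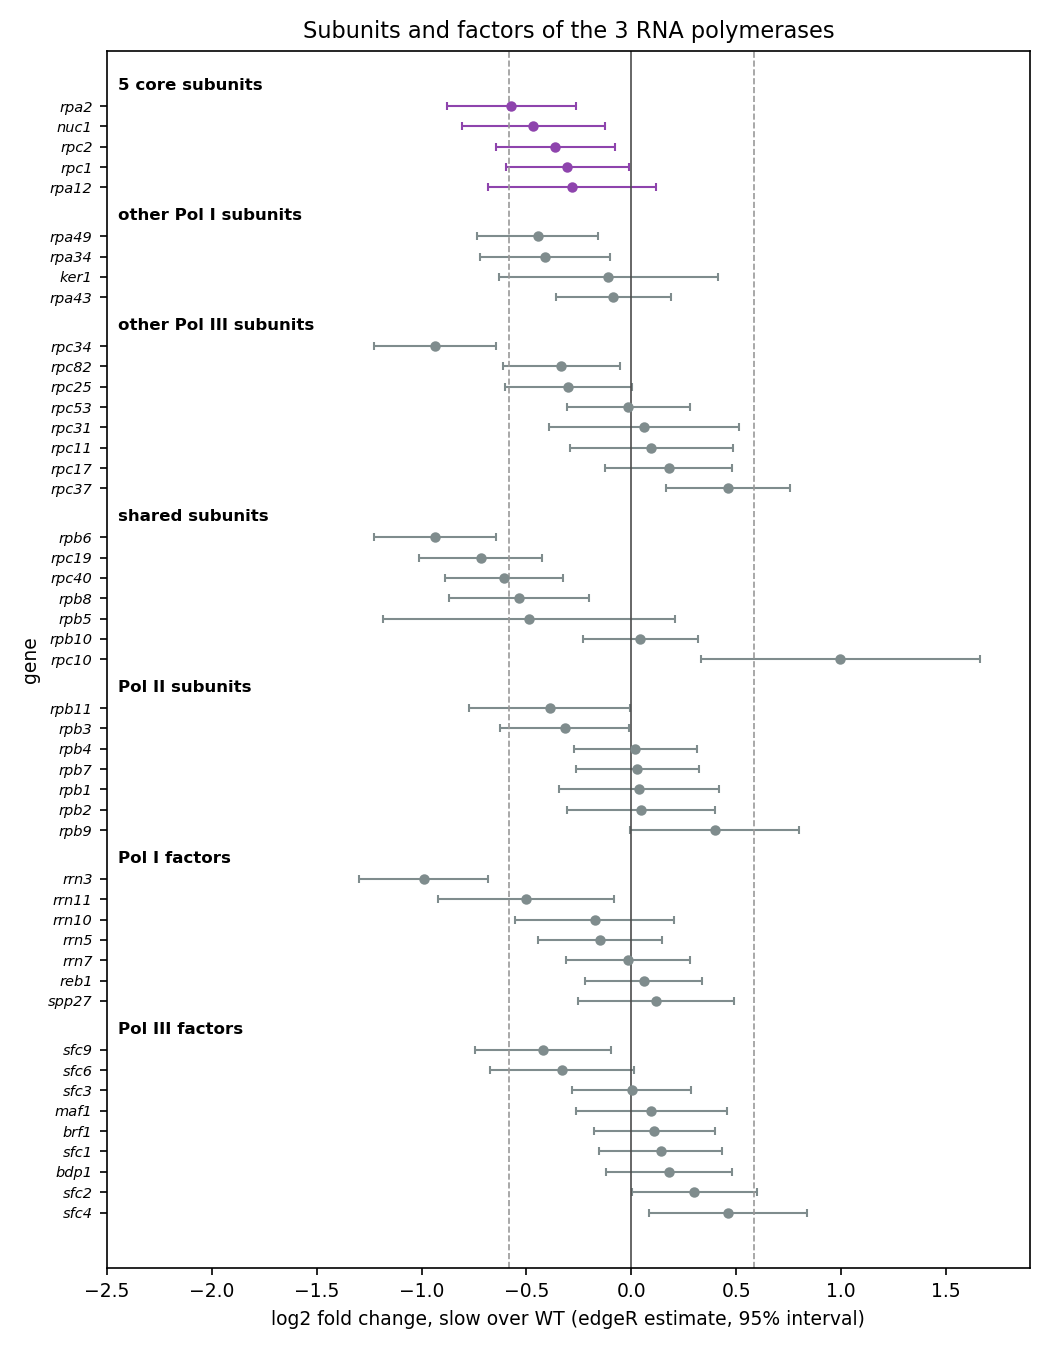
Log2 fold change of slow over WT (edgeR estimate, with its 95% interval) for the tested subunits and factors of the 3 polymerases, by group, with the 5 core genes in purple and dashed lines at 1.5-fold either way. All 5 core genes lie left of 0, rpc34, rpb6 and rrn3 lie farthest left near -0.94 to -0.99, and rpc10 lies farthest right at 1.00.

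The pattern of the core genes over the 3 libraries was shared with many others. By distance between pairs of clone differences, the protein-coding genes nearest to the median of the 5 (-0.37 in slow#1 and -0.36 in slow#2) were pet801, ubr1 (a ubiquitin ligase), tnr3 (thiamine pyrophosphokinase), snt1 and svf2, at distances of 0.0024 to 0.018. Within 0.05 of that point lay 69 protein-coding genes, and 1274 of 5008 lay as near as rpa2, the farthest of the 5. The HomolD motif, CAGTCACA, and the core of the HomolE motif, CCTACCCT, known from ribosomal protein genes of fission yeast, were sought on either strand from 250 bases before to 50 bases after the RefSeq gene start. HomolD was in 2.67% and HomolE in 1.80% of 5123 protein-coding promoters, and neither was in any of the 5. Among the other listed subunits and factors only rpa49 had a match, to HomolD in reverse orientation, beginning at position -61 from its start.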

How the data were processed

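RNA from 2 rpb1 N494D clones and 1 WT strain was sequenced, each as 1 library. Raw counts of read pairs per gene were deposited by the authors, who per the methods and labels trimmed reads with Trimmomatic 0.36, aligned them with STAR 2.5.1 to ASM294v2 and counted them by strand with featureCounts (version not given in the sources used here). Besides counts, the table holds the summed exon length of each gene. Every column is assigned to a library by its name.

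Counts were tested with edgeR 4.0.16 (TMM factors, low counts removed by filterByExpr set to 10 per library and 15 in total, glmQLFit and glmQLFTest) in R 4.3.3, slow over WT, with Benjamini-Hochberg adjustment over 6418 genes, and the script was tested on simulated data. The calls used an FDR under 0.01 and a fold above 1.5. Log2 CPM of single libraries used a prior count of 2. CPM per kb used the exon length in the deposited table. Intervals on counts are exact binomial at 95% and cover counting error only, since PCR reads without molecular identifiers are not independent molecules. Depth was 30674459 to 40746838 counts per library. Alternatives were DESeq2 1.42.0, RLE and upper-quartile factors, scaling to nda2, act1 and fba1 (the reference genes of the RNA assays in the study), the robust fit, no filter beyond 1 count, no structural or mitochondrial RNAs, an FDR under 0.05, leaving out a clone, a prior count of 0.5, and no length scaling. Identifiers were matched to RefSeq for 6844 of 7049 genes. Protein alignments used Biopython 1.88 (BLOSUM matrix, gap open 11, gap extend 1) on RefSeq coding sequences of ASM294v3. Sequence positions are in that build, and gene positions are in ASM294v2.

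The 5 genes and the lists were chosen with earlier results of these data known. The text names all 5, rpb1 and rpb2, in each list every called gene, every gene past 1.5-fold in both clones and the 2 highest and 2 lowest by log2 fold change, and the 5 nearest protein-coding genes. rpc40, rpb5 and rpb8, and SPBC651.07, which overlaps rpc1, were named after their values were seen.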

Additional observations from a re-analysis of the deposited data

How the results depend on the processing

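The 5 core genes had negative log2 fold changes under every scaling, filter and test tried. The count of core genes called stayed at 0 under each of these except scaling to nda2, act1 and fba1. There edgeR called 2, nuc1 at -0.66 (FDR 0.0082) and rpa2 at -0.76 (FDR 0.0013). In that setting 611 of 6418 tested genes were called lower and 187 higher. With TMM factors the 3 reference genes did not move together. Their log2 differences from WT in slow#1 and slow#2 were 0.10 and 0.11 for nda2, 0.33 and 0.31 for act1, and -0.076 and 0.35 for fba1. Scaling to these genes moved the median over all genes to -0.18, against 0.010 with TMM factors. The median of the 5 relative to that shift was -0.37, as with TMM factors. Upper-quartile factors moved the median over all genes to 0.072. The lowest FDR among the 5, that of rpa2, ran from 0.0013 to 0.047 over the edgeR alternatives. Leaving out a clone only returned the log2 difference of the other clone, as given above, and so is no separate check. These were -0.52 to -0.42 for nuc1, -0.58 to -0.57 for rpa2, -0.37 to -0.19 for rpa12, -0.31 to -0.30 for rpc1 and -0.37 to -0.36 for rpc2, with no test.

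Counts of called genes over the whole table depended far more on the setting. Against 20 higher and 25 lower, edgeR called 0 with RLE factors, 19 and 19 with upper-quartile factors, 187 and 611 with the reference genes, 18 and 25 with the robust fit, 127 and 129 without the filter and 4 and 11 without structural and mitochondrial RNAs, and DESeq2 called 318 and 234. The cause was not tested. Without the filter, rpc34, rpb6 and rrn3 were called as well, and with scaling to the reference genes these were called along with rpa49, rpc19, rpc40, rpb5, rpb8 and rpc10. No paired analysis was possible because WT has 1 library and its label carries no replicate number. With 1 WT library and 1 residual degree of freedom, a chance difference in the WT culture cannot be told apart from an effect of the mutation.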
